A study of Mus musculus with 16 samples.

Results

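The 9 genes of the MHC class II pathway described here were taken by name from a table of 734 genes: the classical chains H2-Aa, H2-Ab1 and H2-Eb1, the pseudogene H2-Ea-ps, the invariant chain gene Cd74, and the peptide loading genes H2-DMa, H2-DMb1, H2-DMb2 and H2-Ob. All 9 were in the table, and the fit reported here filtered out no gene. The study asked how erythropoietin (EPO) alters splenic myeloid cells of mice exposed to allogeneic cells under costimulation blockade with CTLA4-Ig. RNA from spleen cells positively selected for CD11b was counted on a NanoString myeloid panel, which counts RNA molecules with colour-coded probes and no amplification. A total of 16 wild-type C57BL/6 (B6) mice formed 4 groups of 4. Naive mice were untreated. Mice of the spleen cell group received BALB/c spleen cells that had been depleted of T cells, mice of the CTLA4-Ig group the same cells with 150 µg of CTLA4-Ig on day 2, and mice of the CTLA4-Ig/EPO group both of these with EPO at 5000 units per kg each day. Spleens of the mice given cells were taken on day 7, and no day is listed for the naive mice. The age of the mice was not given in the sources used here.

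The sources differ on points that bear on every difference from naive mice. Sample names and treatment labels matched each other and set the groups, but the protocol text attaches the letter codes of the naive and spleen cell groups the other way round; the codes of both CTLA4-Ig groups, DC and DCE, begin with the letter that the sample names give to the spleen cell group. If the protocol text were right, each difference between spleen cell and naive mice would change sign, the CTLA4-Ig step would be a difference from naive mice, and each CTLA4-Ig/EPO difference from naive mice would be a difference from mice given spleen cells alone. In the limma fit below, with Benjamini-Hochberg adjustment, 87 genes were higher and 429 lower in the group named spleen cell than in that named naive, and 0 of 734 differed (70 at unadjusted p under 0.05, 0 by limma-voom) between the groups named spleen cell and CTLA4-Ig. The labels give an intraperitoneal route for the cells where the study's results give an intravenous one, and call the cells CD11b+ where its results call them CD11b+CD11c-. For this experiment the study's methods name BALB/c splenocytes and do not mention that T cells were removed from them. Itgam, which encodes CD11b, had log2 levels of 11.59, 11.41, 11.23 and 11.45 in the naive mice, 8.80, 8.50, 9.16 and 8.95 in the spleen cell group, 9.10, 9.28, 9.16 and 9.36 in the CTLA4-Ig group and 9.18, 9.77, 9.48 and 9.79 in the CTLA4-Ig/EPO group. It was measured in all 16 mice and was -2.57 ± 0.16 (adjusted p = 2.3e-09) in spleen cell against naive mice on the log2 scale. Itgax, which encodes CD11c, was also measured in every mouse, at 8.33 ± 0.34, 8.41 ± 0.22, 8.48 ± 0.26 and 7.55 ± 0.16 (SD, n = 4) in the same order of groups. Each mouse gave between 562760 and 912328 recovered counts, so that 8 of the 9 genes were read from at least 380 counts in every mouse, while H2-Ea-ps never had more than 15.

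MHC class II molecules are pairs of an alpha and a beta chain that present peptides from the endosomes to CD4+ T cells; in the mouse the pairs are called I-A (H2-Aa with H2-Ab1) and I-E (H2-Ea with H2-Eb1). The invariant chain, Cd74, fills the groove of a newly made pair and guides it to the endosome, where H2-DM (H2-DMa with an H2-DMb chain) removes the last fragment and loads peptide, and H2-DO, of which H2-Ob is the beta chain, holds H2-DM back, mainly in B cells. B cells and dendritic cells carry class II at all times and macrophages raise it after interferon gamma; B6 mice, of haplotype H-2b, have a deletion that silences Ea and so show no I-E on their cells, whereas BALB/c mice, of haplotype H-2d, do.

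The class II genes are known to share short promoter elements, named the X and Y boxes, so the promoters of members are shown. RefSeq promoters (GRCm38.p6; 250 bases before to 50 after the start) matched 6 of the 9 members with 7 sequences; H2-Ab1, H2-Ea-ps and Cd74 are named only. The letters searched on both strands were AACNGATG, the core of the X box (N is any base), and GATTGG, the core of the Y box; the motifs do not overlap each other in the sequences printed. Of 32544 promoter sequences of the same length, 2.32% held the X core, 16.1% the Y core and 0.33% both. H2-Eb1, H2-DMb1 and H2-DMb2 held both, H2-Aa and H2-Ob the Y core, and H2-DMa the Y core in 1 of its 2 sequences. The 150 bases before the start are printed 5′ to 3′ for 4 members, with matches on either strand in capitals: a classical chain and both H2-DMb genes, which hold both cores, and H2-Ob, the inhibitor chain, which holds the Y core. They lie at chr17:34305717-34305866, plus strand (H2-Eb1), chr17:34153041-34153190, plus strand (H2-DMb1), chr17:34145099-34145248, plus strand (H2-DMb2) and chr17:34238755-34238904, plus strand (H2-Ob).
H2-Eb1: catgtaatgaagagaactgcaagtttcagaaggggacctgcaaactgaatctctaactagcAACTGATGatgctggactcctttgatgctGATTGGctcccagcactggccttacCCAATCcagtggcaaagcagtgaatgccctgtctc
H2-DMb1: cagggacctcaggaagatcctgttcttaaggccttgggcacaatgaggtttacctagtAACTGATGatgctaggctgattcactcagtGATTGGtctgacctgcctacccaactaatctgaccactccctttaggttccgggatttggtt
H2-DMb2: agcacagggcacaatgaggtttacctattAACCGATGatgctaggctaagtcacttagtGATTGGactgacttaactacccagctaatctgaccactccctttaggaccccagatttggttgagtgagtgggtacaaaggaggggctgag
H2-Ob: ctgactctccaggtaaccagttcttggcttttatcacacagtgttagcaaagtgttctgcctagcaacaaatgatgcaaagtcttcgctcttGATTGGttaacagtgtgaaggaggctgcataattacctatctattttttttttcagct
A match is a run of letters and not a measured site. In H2-Eb1 the X core began at -89 and the Y core at -60 from the start, with 21 bases between them, and a second GATTGG lay on the opposite strand. In H2-DMb1 and H2-DMb2 the cores were 22 bases apart.

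H2-Aa, the I-A alpha chain, had normalized log2 levels of 14.23, 14.49, 14.44 and 14.12 in the naive mice, 15.29, 15.33, 15.13 and 15.16 in the spleen cell group, 15.17, 15.13, 15.21 and 14.96 in the CTLA4-Ig group and 14.52, 14.41, 14.03 and 14.11 in the CTLA4-Ig/EPO group. Every mouse given spleen cells without EPO lay above every naive mouse, and the CTLA4-Ig/EPO mice overlapped the naive ones. The log2 levels of H2-Eb1, the I-E beta chain, were 11.71, 12.05, 12.19 and 11.82 in the naive mice, 12.71, 12.84, 13.23 and 13.30 in the spleen cell group, 12.83, 12.79, 13.44 and 13.37 in the CTLA4-Ig group and 11.76, 11.69, 11.99 and 12.05 in the CTLA4-Ig/EPO group. The same groups overlapped as for H2-Aa, and in each group given cells the mice numbered 3 and 4 were higher than those numbered 1 and 2. H2-Ab1, the I-A beta chain, averaged 13.67 ± 0.18 in naive, 14.50 ± 0.08 in spleen cell, 14.39 ± 0.08 in CTLA4-Ig and 13.35 ± 0.19 in CTLA4-Ig/EPO mice (SD, n = 4), with the same overlap: naive with CTLA4-Ig/EPO, and spleen cell with CTLA4-Ig.

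**Figure D1:**
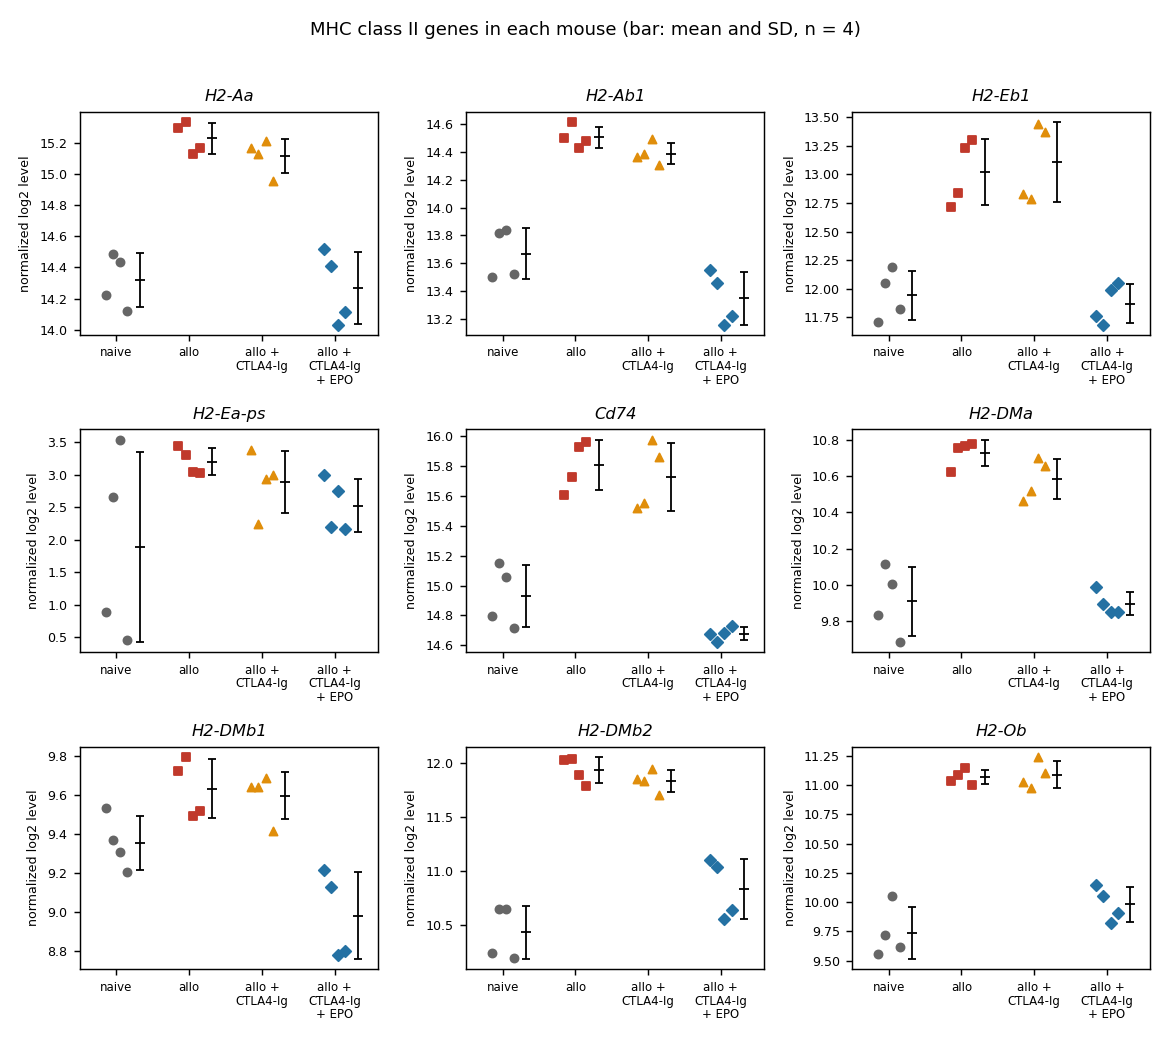
Normalized log2 level (vertical axis, own range in each panel) of the 9 class II genes in each of the 16 mice by treatment group (points, left to right in order of mouse number), with the group mean and SD (n = 4). In 8 of the 9 genes every CTLA4-Ig/EPO mouse lies below every CTLA4-Ig mouse; in H2-Ea-ps the groups overlap.

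Cd74, the invariant chain, had log2 levels of 14.80, 15.15, 15.05 and 14.72 in the naive mice, 15.61, 15.73, 15.93 and 15.96 in the spleen cell group, 15.52, 15.55, 15.98 and 15.86 in the CTLA4-Ig group and 14.67, 14.62, 14.68 and 14.73 in the CTLA4-Ig/EPO group. Its CTLA4-Ig/EPO mice varied by an SD of 0.04 and lay below both groups that had spleen cells without EPO. Among the loading genes, the H2-DMa levels averaged 9.91 ± 0.19, 10.73 ± 0.07, 10.58 ± 0.11 and 9.90 ± 0.06 in naive, spleen cell, CTLA4-Ig and CTLA4-Ig/EPO mice. On the deposited scale the genes for the H2-DM beta chain did not order the groups in the same way. On the other scales below, CTLA4-Ig/EPO mice lay on average above naive mice for both. For H2-DMb1 the log2 levels were 9.53, 9.37, 9.31 and 9.20 in the naive mice, 9.73, 9.80, 9.49 and 9.52 in the spleen cell group, 9.64, 9.64, 9.69 and 9.42 in the CTLA4-Ig group and 9.21, 9.13, 8.78 and 8.80 in the CTLA4-Ig/EPO group. Naive and spleen cell mice overlapped here, and 3 of the 4 CTLA4-Ig/EPO mice were below all naive mice. For H2-DMb2 they were 10.24, 10.65, 10.65 and 10.20 in the naive mice, 12.03, 12.04, 11.89 and 11.78 in the spleen cell group, 11.85, 11.83, 11.95 and 11.70 in the CTLA4-Ig group and 11.10, 11.04, 10.55 and 10.64 in the CTLA4-Ig/EPO group. Here the naive and spleen cell groups stood far apart, and the CTLA4-Ig/EPO mice spread from the naive range to above it. H2-DMb1 and H2-DMb2 are closely related copies, so a probe may read some RNA of the other gene, and their values are uncertain to that extent. H2-Ob, the chain of the inhibitor H2-DO, had log2 levels of 9.56, 9.72, 10.06 and 9.62 in the naive mice, 11.04, 11.09, 11.14 and 11.00 in the spleen cell group, 11.03, 10.98, 11.24 and 11.10 in the CTLA4-Ig group and 10.15, 10.05, 9.82 and 9.91 in the CTLA4-Ig/EPO group. The spleen cell and CTLA4-Ig groups overlapped and stood clear of the other 2 groups.

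Injected spleen cells went with higher class II RNA, with groups taken from sample names; under the letters of the protocol text the direction would be the opposite. In the limma fit over all 734 genes and 16 mice, with Benjamini-Hochberg adjustment, 8 of the 9 genes were higher in spleen cell than in naive mice at an adjusted p under 0.05, beside 11.9% of all genes called higher and 58.4% called lower. The log2 fold change was 1.50 ± 0.14 (adjusted p = 3.2e-07) for H2-DMb2, 1.33 ± 0.11 (adjusted p = 9.9e-08) for H2-Ob, 1.08 ± 0.18 (adjusted p = 0.00010) for H2-Eb1, 0.91 ± 0.12 (adjusted p = 1.1e-05) for H2-Aa and 0.88 ± 0.13 (adjusted p = 2.8e-05) for Cd74, given with its standard error. H2-Ab1 changed by 0.84 ± 0.11 (adjusted p = 9.7e-06) and H2-DMa by 0.82 ± 0.10 (adjusted p = 3.7e-06). H2-Ea-ps, also among the 8, was at 1.32 ± 0.52 (adjusted p = 0.036). It lost its call in 7 of 17 alternatives and turned sign in 1. H2-DMb1 was the gene not called, at 0.28 ± 0.12 (adjusted p = 0.053), and it passed on the other scales below. The 4 spleen cell mice lay above all 4 naive mice in 7 of the 9 genes, beside 10.1% of all genes. In bulk samples such as these, fewer or more cells of a type and less or more RNA per cell cannot be told apart.

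The size of this difference depended on the scale. Naive mice had been multiplied by larger factors than the other groups in the deposited values, and the median change over all genes was -0.65. Relative to that median the 9 genes were 0.93 (H2-DMb1) to 2.15 (H2-DMb2) higher. With every mouse centred on its median, all 9 were called higher, beside 33% of all genes. The same held with scaling to total counts (9 of 9, beside 45.5%) and with quantile normalization (9 of 9, beside 34.2%), where the median change over all genes was 0.44 and 0.15. The split of calls over all genes moved from 87 higher and 429 lower on the deposited scale to 334 higher and 132 lower on total counts.

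CTLA4-Ig was not seen to alter the class II genes. None of the 9 was called against spleen cells alone, and limma with Benjamini-Hochberg adjustment called 0 of all 734 genes (0%), as did limma-voom on recovered counts; 70 genes, none of them a class II gene, had an unadjusted p under 0.05. The estimates ran from -0.31 (H2-Ea-ps) to 0.09 (H2-Eb1). For H2-DMa the log2 fold change was -0.15 ± 0.10 (adjusted p = 0.77), with a 95% interval from -0.36 to 0.07, and for H2-Eb1 the interval ran from -0.30 to 0.48. All 9 genes overlapped between these groups.

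With EPO added to CTLA4-Ig, 8 of the 9 genes were lower, beside 28.3% of all genes called lower and 22.8% called higher. H2-Eb1 fell most, with a log2 fold change of -1.24 ± 0.18 (adjusted p = 4.3e-05). H2-Ob changed by -1.11 ± 0.11 (adjusted p = 1.5e-06), Cd74 by -1.05 ± 0.13 (adjusted p = 8.1e-06), H2-Ab1 by -1.04 ± 0.11 (adjusted p = 2.0e-06) and H2-DMb2 by -0.999 ± 0.14 (adjusted p = 3.6e-05). Smaller falls were measured in H2-Aa, at -0.85 ± 0.12 (adjusted p = 3.5e-05), H2-DMa, at -0.68 ± 0.10 (adjusted p = 3.5e-05), and H2-DMb1, at -0.62 ± 0.12 (adjusted p = 0.00063). These are the 8 genes in which every CTLA4-Ig/EPO mouse lay below every CTLA4-Ig mouse, beside 27.5% of all genes. The median change of the 9 genes was -0.999, and that of all genes -0.07; relative to the latter the 8 called genes were -1.16 to -0.54.

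**Figure D2:**
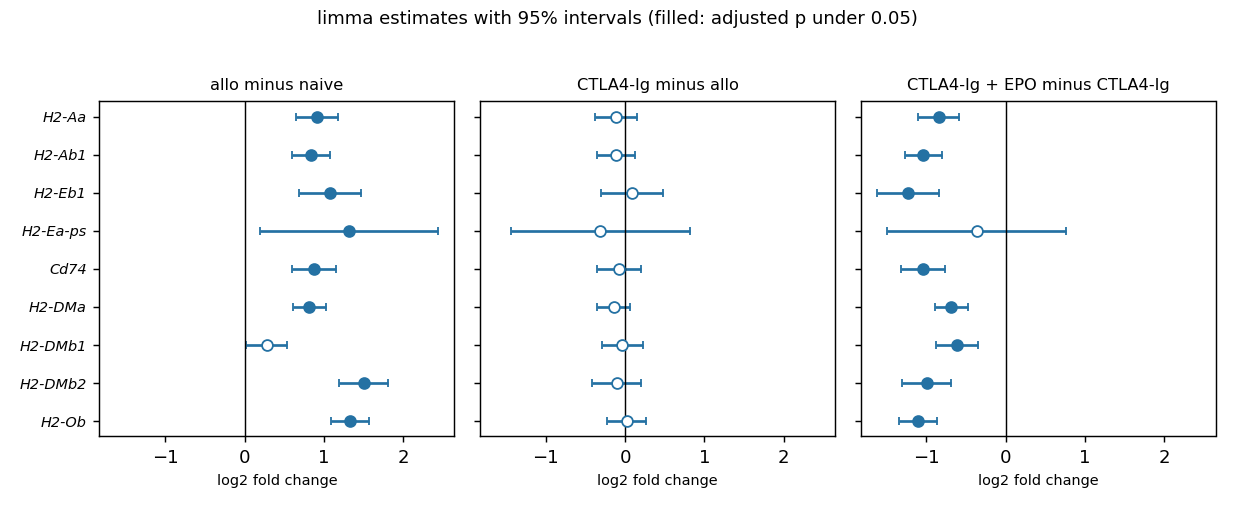
Log2 fold change (horizontal axis, deposited scale) of the 9 class II genes in 3 comparisons, with 95% intervals from limma; filled points had an adjusted p under 0.05. Estimates lie above 0 for spleen cell against naive mice, near 0 for CTLA4-Ig against spleen cells alone and below 0 for EPO added to CTLA4-Ig; under quantile normalization H2-Eb1 in the middle panel lies below 0.

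The fall with EPO held its direction on each scale: 8 of 9 genes were called lower after centring on medians (37.6% of all genes) and on total counts (19.9%), and 7 of 9 after quantile normalization (30.4%). The gene lost there was Cd74, at -0.45 (adjusted p = 0.13, limma with Benjamini-Hochberg; 8.1e-06 on the deposited scale); quantile normalization forces the most abundant gene of each mouse to a common value, and Cd74 held that place in 10 of the 16 mice. Since levels of H2-Eb1 differed between mice numbered 1 and 2 and mice numbered 3 and 4, the EPO change was also taken within each pair of numbers, a split chosen after seeing the data and given with no test. It was -1.08 and -1.39 for H2-Eb1, -0.89 and -1.21 for Cd74, -0.68 and -1.01 for H2-Aa and -0.47 and -0.76 for H2-DMb1, so the direction was the same in both.

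Against naive mice, the CTLA4-Ig/EPO group gave no single direction. On the deposited scale 1 gene was called higher, H2-DMb2 at 0.40 ± 0.14 (adjusted p = 0.022), beside 9.13% of all genes, and 2 were called lower, H2-DMb1 at -0.37 ± 0.12 (adjusted p = 0.013) and H2-Ab1 at -0.32 ± 0.11 (adjusted p = 0.018), beside 61.7%. The H2-DMb2 call was lost in 5 of 18 alternatives. H2-Ab1 lost its call in 5 of the 18 and turned sign in 4. H2-Aa, at -0.05, H2-Eb1, at -0.07, and H2-DMa, at -0.01, were within their standard errors of 0. These directions turn with the scale: H2-Ab1, H2-DMb1, H2-Aa, H2-Eb1, H2-DMa and Cd74 all lay above naive after centring on medians, on total counts and after quantile normalization. There 4, 9 and 9 of the 9 genes were called higher, beside 22.9%, 46.3% and 30.4% of all genes. The median change of all genes was -0.74 on the deposited scale, and relative to it the 9 genes were 0.36 (H2-DMb1) to 1.37 (H2-Ea-ps) higher. H2-DMb2 and H2-Ob lay above naive on all 4 scales.

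**Figure D3:**
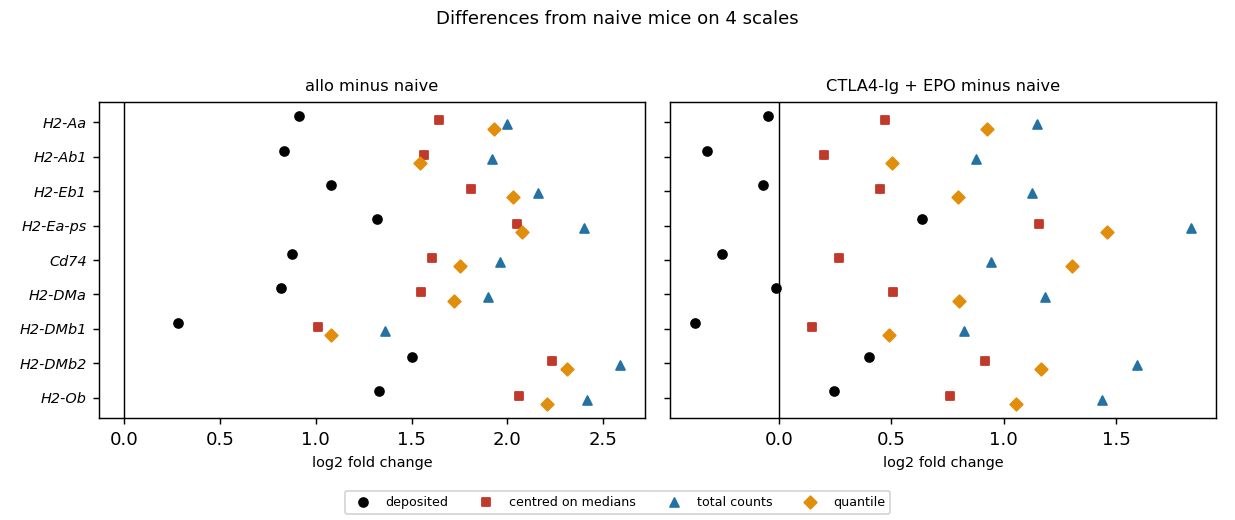
Log2 fold change (horizontal axis) of the 9 class II genes from naive mice in the spleen cell group (left) and the CTLA4-Ig/EPO group (right), on the deposited scale, centred on medians, scaled to total counts and quantile normalized. On the left all points lie above 0; on the right H2-Aa, H2-Ab1, H2-Eb1, Cd74, H2-DMa and H2-DMb1 change side between the deposited and the other scales.

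The share of all recovered counts taken by the 9 genes put the groups in 3 tiers. It was 4.3, 7.69, 8.51 and 6.14% in the naive mice, 24.2, 25.8, 26 and 26.9% in the spleen cell group, 23.3, 22, 27 and 25.6% in the CTLA4-Ig group and 14.8, 12.2, 12.9 and 12.9% in the CTLA4-Ig/EPO group. The spleen cell and CTLA4-Ig groups overlapped, the CTLA4-Ig/EPO mice lay below both, and the naive mice lowest, with no overlap between these tiers. A share moves with every other gene counted. The most abundant gene in all 4 naive mice was S100a9, a neutrophil gene, with a log2 fold change of -4.48 ± 0.41 (adjusted p = 1.8e-07) in spleen cell against naive mice.

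**Figure D4:**
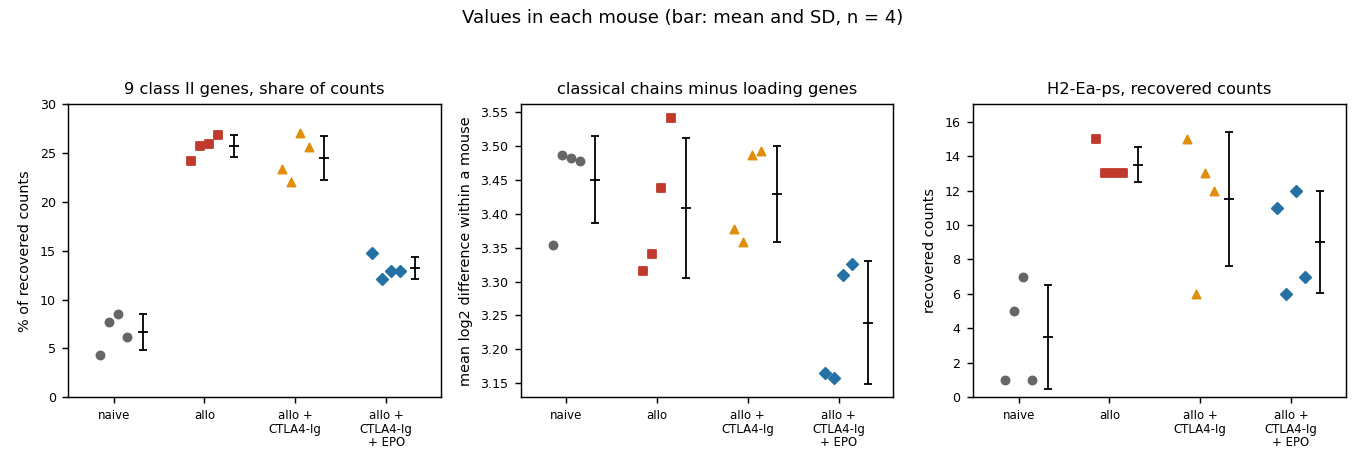
Values in each of the 16 mice by group, with mean and SD (n = 4): the percent of recovered counts taken by the 9 class II genes (left, from 0), the mean log2 level of the classical chains minus that of the loading genes (middle) and the recovered counts of H2-Ea-ps (right, from 0). The CTLA4-Ig/EPO mice lie below the CTLA4-Ig mice in the left and middle panels, and H2-Ea-ps has at most 15 counts in any mouse.

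Classical chains and loading genes were compared within each mouse, as the mean log2 level of H2-Aa, H2-Ab1 and H2-Eb1 minus that of H2-DMa, H2-DMb1, H2-DMb2 and H2-Ob, a value that does not depend on the factor of the mouse and was not tested. Its absolute size reflects probes and is not read. It was 3.35, 3.49, 3.48 and 3.48 in the naive mice, 3.32, 3.34, 3.44 and 3.54 in the spleen cell group, 3.38, 3.36, 3.49 and 3.49 in the CTLA4-Ig group and 3.17, 3.16, 3.31 and 3.33 in the CTLA4-Ig/EPO group. The first 3 groups overlapped. The CTLA4-Ig/EPO mice lay below all CTLA4-Ig mice, with a mean change of -0.19, and below all naive mice. They overlapped the spleen cell group. Both sets thus fell with EPO, by medians of -1.04 for the 3 classical chains and -0.84 for the 4 loading genes. By estimate, H2-Ob (-1.11) and H2-DMb2 (-0.999) lay within the range of the classical chains (-1.24 to -0.85), and H2-DMa (-0.68) and H2-DMb1 (-0.62) nearer to 0. The 95% intervals of H2-DMa (-0.90 to -0.47) and H2-DMb1 (-0.88 to -0.36) hold the -0.85 of H2-Aa. Differences between genes were not tested. Without H2-Ob the change of the within-mouse value with EPO was -0.27. In spleen cell against naive mice it was -0.04, with medians of 0.91 for the classical chains and 1.07 for the loading genes, and 0.08 without H2-Ob, so that change had no settled sign.

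H2-Ea-ps needs separate account because the recipients were B6 and the injected cells BALB/c. The table names it as a pseudogene; RefSeq (GRCm38.p6, a B6 genome) lists the name as a synonym of H2-Ea, with the type transcribed pseudogene. The recovered counts were 1, 5, 7 and 1 in the naive mice, 15, 13, 13 and 13 in the spleen cell group, 15, 6, 13 and 12 in the CTLA4-Ig group and 11, 6, 12 and 7 in the CTLA4-Ig/EPO group. These are among the lowest in the table: 70 of 734 genes had a lower mean count. No value of the table was recovered as 0 and 99 of 11744 were recovered as 1, so a count of 1 may stand for no molecule. It may also stand for a lost value: Irf8, a transcription factor gene of dendritic cells and macrophages, had log2 levels of 0.89, 9.64, 9.87 and 9.70 in the naive mice, where 0.89 is 1 count, and at least 9.36 in all other mice. Naive mouse 1 had 17 values of 1, the most of any mouse, and differed more from the other naive mice (chi-square per degree of freedom 71.8 to 127) than these from each other (8.40 to 19.9). Its 1 count of H2-Ea-ps is therefore in doubt, and without that mouse the limma estimate was 0.99 (adjusted p = 0.12), while the other 8 members were called higher. Naive mice had 1 to 7 counts and spleen cell mice 13 to 15.

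Scaled to the total counts of each mouse (CPM), H2-Ea-ps stood at 1.20, 5.93, 12.44 and 1.32 in the naive mice and 20.58, 18.57, 15.41 and 15.52 in the spleen cell group, with no overlap (exact permutation test, two-sided, p = 0.029, the smallest that 4 against 4 mice allow). On total counts 45.5% of all genes were called higher by limma, with a median change over all genes of 0.44. The summed counts were 54 against 14, a ratio of shares of 3.71 (95% interval 2.03 to 7.24), where the exact binomial interval covers counting error only. Of the 14 naive counts 7 came from naive mouse 3, and a ratio without that mouse was not taken. On the deposited log2 scale naive and spleen cell mice overlapped (exact permutation p = 0.17), since the factor of naive mouse 3 lifted its 7 counts above all spleen cell mice. The limma estimate was 1.32 ± 0.52 (adjusted p = 0.036), and it lost its call without any 1 of the spleen cell mice or without naive mouse 1 or 4 (adjusted p 0.13 without naive mouse 4), and in a fit of these 2 groups alone (adjusted p = 0.096). Without 1 mouse the limma estimate ran from 0.84 to 1.87. Over the alternatives with a rise the adjusted p ran from 0.00039 to 0.13. With counts floored at 20 the estimate turned to -1.15 (adjusted p = 4.6e-07), by construction the difference of the factors alone, as every count was under the floor.

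Neither later step of H2-Ea-ps was called. Against spleen cells alone the CTLA4-Ig group gave -0.31 ± 0.52 (adjusted p = 0.91), with summed counts of 46 against 54 and a ratio of shares of 0.854 (95% interval 0.564 to 1.29). EPO added to CTLA4-Ig gave -0.37 ± 0.52 (adjusted p = 0.59), with 36 against 46 counts and a ratio of 0.821 (95% interval 0.516 to 1.30). The exact permutation p over log2 levels was 0.23 for each step. The 95% interval of H2-Ea-ps with EPO from limma, -1.49 to 0.75, holds the change of H2-Eb1, -1.24. The interval of the ratio does not reach so low, but it leaves out the spread between mice. H2-Eb1, whose protein pairs with that of Ea, was counted 1809 to 3342 times in naive and 9217 to 16032 times in spleen cell mice. Whether H2-Ea-ps counts came from recipient or from injected cells was not tested, and neither was binding of the probe to other RNA.

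Genes that mark B cells, which carry class II at all times and are the main cells known to make H2-DO, moved with the class II genes. Of 24 B cell markers listed, 5 were in the table (Ms4a1, Cxcr5, Fcer2a, Cd180 and Btk); Cd79a, Cd79b and Pax5 were not in it, and the most abundant of the 5 was Ms4a1 in the mice given cells and Cd180 in the naive mice. In spleen cell against naive mice 4 of the 5 were higher, beside 11.9% of all genes, with a list median of 1.41 beside -0.65 over all genes, and Btk, at -0.20 and not called on the deposited scale, was called higher on the others. With EPO 4 of 5 were lower, beside 28.3% of all genes (5 of 5 after centring on medians, where Btk was also called, and the same 4 on the other scales), with a median of -0.83 beside -0.07. The log2 level of Ms4a1, which encodes CD20, was 9.78, 9.88, 9.95 and 9.81 in the naive mice, 11.47, 11.30, 11.39 and 11.19 in the spleen cell group, 11.22, 11.31, 11.37 and 11.09 in the CTLA4-Ig group and 10.77, 10.71, 10.20 and 10.29 in the CTLA4-Ig/EPO group. It was high where class II was high, and the group means kept the order of those of H2-DMb2; every CTLA4-Ig/EPO mouse lay above the naive ones for Ms4a1, but only 2 of the 4 for H2-DMb2. With EPO the log2 fold change was -0.76 ± 0.13 (adjusted p = 0.00016) for Ms4a1, -1.08 ± 0.12 (adjusted p = 2.8e-06) for the chemokine receptor Cxcr5, -0.97 ± 0.15 (adjusted p = 5.1e-05) for Fcer2a (CD23) and -0.83 ± 0.11 (adjusted p = 1.0e-05) for Cd180. The summed log2 level of the 5 markers was 11.40, 11.52, 11.47 and 11.37 in the naive mice, 12.54, 12.41, 12.49 and 12.32 in the spleen cell group, 12.35, 12.43, 12.51 and 12.32 in the CTLA4-Ig group and 11.88, 11.86, 11.45 and 11.56 in the CTLA4-Ig/EPO group. In both pairs of mouse numbers Ms4a1 fell with EPO, by values of -0.52 and -0.99. The RNA came from cells positively selected for CD11b as myeloid cells. The part of B cells in the class II values was not tested.

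Dendritic cell and T cell markers were read in the same way. Of 19 dendritic cell markers 11 were in the table, without Zbtb46. In spleen cell against naive mice 6 were higher and 2 lower, beside 11.9% and 58.4% of all genes. The median was 0.53 beside -0.65. On total counts 9 were higher and 0 lower, beside 45.5% and 18%. Ccr7 (1.75), Clec9a (1.12) and Dpp4 (0.97) rose most on the deposited scale and were higher on every scale. The 2 lower were Sirpa (-1.40) and Batf3 (-1.36), and both lay below naive on every scale. With EPO 4 of 11 were lower and 2 higher, beside 28.3% and 22.8% of all genes, with a median of -0.28 beside -0.07. After centring on medians 5 were lower and 1 higher, beside 37.6% and 17.2%. Quantile normalization gave the same counts, beside 30.4% and 21.1%. Lower were Ccr7 (-1.52), Itgax (-0.93), Dpp4 (-0.92) and Flt3 (-0.85), which marks dendritic cells and their precursors. Higher were Sirpa (1.47), which macrophages also express, and Xcr1 (0.69, adjusted p = 0.011, limma; not called after centring on medians or quantile normalization). The most abundant of the 11 was Sirpa in naive and CTLA4-Ig/EPO mice and Ccr7 in the other groups. Their summed log2 level was 12.67, 12.68, 12.74 and 12.62 in the naive mice, 12.85, 12.86, 12.78 and 12.86 in the spleen cell group, 12.72, 12.61, 12.90 and 12.75 in the CTLA4-Ig group and 12.61, 12.60, 12.70 and 12.58 in the CTLA4-Ig/EPO group. The CTLA4-Ig mice overlapped both other groups given cells, while every spleen cell mouse lay above every CTLA4-Ig/EPO mouse on this scale but not by share of counts. Of 17 T cell markers 6 were in the table and Cd3d, Cd3e and Cd3g were not; all 6 were higher in spleen cell than naive mice and all 6 lower with EPO, on every scale, beside 11.9% and 28.3% of all genes on the deposited one, with medians of 1.38 and -1.58 beside -0.65 and -0.07. The most abundant was Cd28 in spleen cell and CTLA4-Ig mice and Cd247 in CTLA4-Ig/EPO mice and 3 of the 4 naive mice. Their summed log2 level was 9.05, 9.33, 9.56 and 9.25 in the naive mice, 10.58, 10.77, 10.42 and 10.45 in the spleen cell group, 10.46, 10.50, 10.39 and 10.50 in the CTLA4-Ig group and 9.23, 8.94, 8.66 and 8.76 in the CTLA4-Ig/EPO group. The same CD11b selection applies to these cells, and their part in the class II values was not tested either.

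Markers of other cells that the selection could hold also moved in these steps, in both directions. Of 15 splenic macrophage markers listed, 11 were in the table, and Spic was not. The 11 were Adgre1, Vcam1, C1qa, C1qb, C1qc, Timd4, Mertk, Mrc1, Cd163, Siglec1 and Marco. With EPO 10 of the 11 were higher on every scale, beside 22.8% of all genes on the deposited one, with a median of 1.72 beside -0.07, opposite to class II. In spleen cell against naive mice 3 were higher and 2 lower, beside 11.9% and 58.4% of all genes. The median was 0.07 beside -0.65. Of all genes 33%, 45.5% and 34.2% were higher after centring on medians, on total counts and after quantile normalization. On these scales 7, 9 and 7 of the markers were higher with 0 lower, the direction of class II. Their summed log2 level, with Vcam1 the most abundant, was 13.27, 13.11, 13.03 and 13.41 in the naive mice, 13.41, 13.19, 13.24 and 13.45 in the spleen cell group, 13.08, 13.14, 13.22 and 13.06 in the CTLA4-Ig group and 14.76, 14.70, 15.16 and 14.89 in the CTLA4-Ig/EPO group. Every CTLA4-Ig/EPO mouse lay above all other mice. Of 12 neutrophil markers 9 were in the table, Ly6g among them. All 9 were lower in spleen cell than naive mice on every scale, beside 58.4% of all genes on the deposited one. The deposited median was -4.31 beside -0.65 over all genes. With EPO 4 were higher and 1 lower, beside 22.8% and 28.3% of all genes, with a median of 0.71 beside -0.07. On total counts 6 were higher and 1 lower, beside 25.1% and 19.9%. Their summed log2 level, with S100a9 the most abundant in all but 1 mouse, was 19.55, 18.34, 18.00 and 18.42 in the naive mice, 15.16, 13.82, 14.39 and 13.69 in the spleen cell group, 14.62, 14.55, 13.87 and 13.96 in the CTLA4-Ig group and 15.21, 16.41, 15.56 and 15.84 in the CTLA4-Ig/EPO group. The naive mice lay far above the rest. Of 11 monocyte markers 8 were in the table. In spleen cell against naive mice 7 were lower, beside 58.4% of all genes, with a median of -1.51. On total counts 4 were lower and 2 higher, beside 18% and 45.5%. With EPO 4 were higher and 2 lower, beside 22.8% and 28.3%, with a median of 0.44. The most abundant was Nr4a1 in spleen cell and CTLA4-Ig mice and Csf1r in CTLA4-Ig/EPO mice. Their summed log2 level was 14.48, 14.53, 14.42 and 14.41 in the naive mice, 13.21, 13.29, 13.65 and 13.57 in the spleen cell group, 13.45, 13.57, 13.70 and 13.63 in the CTLA4-Ig group and 13.21, 13.40, 13.34 and 13.46 in the CTLA4-Ig/EPO group, highest in naive mice on this scale, while by share of counts all groups overlapped. Of 10 NK cell markers 3 were in the table, and Ncr1 was not. With EPO all 3 were lower, beside 28.3% of all genes (1 on total counts, beside 19.9%), with a median of -0.63. In spleen cell against naive mice 2 were lower on the deposited scale, beside 58.4%, and 1 higher on total counts, beside 45.5%. Their summed log2 level, with Gzma the most abundant, was 12.97, 13.36, 13.33 and 12.82 in the naive mice, 12.07, 12.69, 12.92 and 12.80 in the spleen cell group, 13.10, 13.58, 13.02 and 13.24 in the CTLA4-Ig group and 12.68, 12.48, 12.27 and 12.46 in the CTLA4-Ig/EPO group. The CTLA4-Ig/EPO mice lay below the CTLA4-Ig mice here. The part of these cells in the class II values was not tested.

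**Figure D5:**
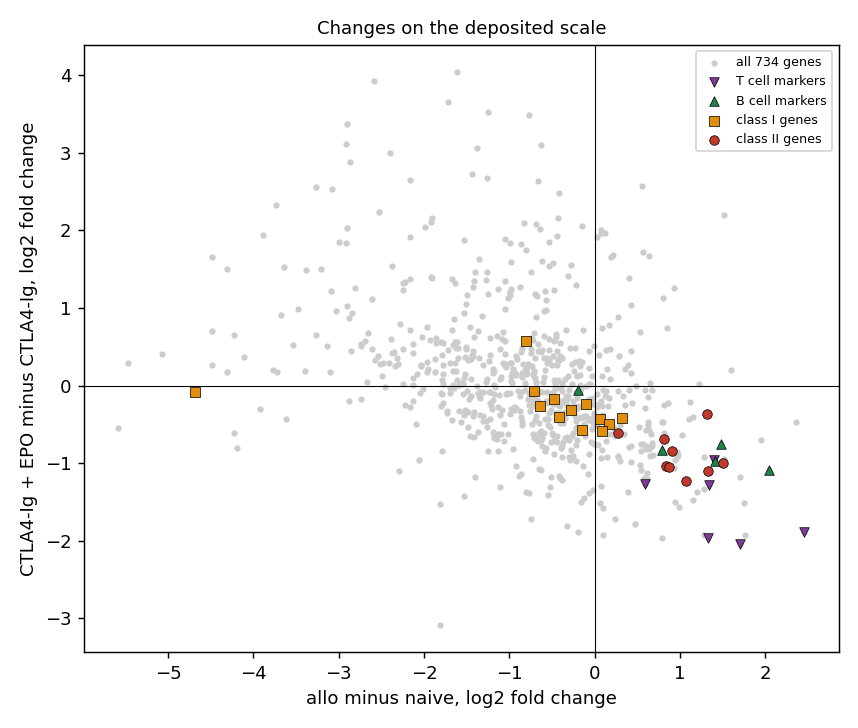
Log2 fold change on the deposited scale for spleen cell against naive mice (horizontal) and for EPO added to CTLA4-Ig (vertical), comparisons that share no mice, for all 734 genes (grey) and for the class II genes, class I genes, B cell markers and T cell markers. The 9 class II genes lie at positive horizontal and negative vertical values. So do 4 of the 5 B cell markers and all 6 T cell markers. Horizontal positions of most class I genes move above 0 on the other scales.

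Of 29 genes that control class II or process its antigens, 12 were in the table, and Ciita, Rfx5 and H2-Oa were not. With EPO 5 of the 12 were lower and 4 higher on the deposited scale, beside 28.3% and 22.8% of all genes. The median was -0.42 beside -0.07. After centring on medians 6 were lower and 3 higher, beside 37.6% and 17.2%. On total counts 4 were lower and 3 higher, beside 19.9% and 25.1%. Irf4, a transcription factor of B cells and dendritic cells, was lower by a log2 fold change of -1.92 ± 0.11 (adjusted p = 1.0e-08), and Cd83, which keeps class II on the cell surface, by -1.48 ± 0.16 (adjusted p = 2.6e-06). Ifng, whose protein induces class II in macrophages, changed by -1.17 ± 0.21 (adjusted p = 0.00027) and its receptor chain Ifngr1 by -0.67 ± 0.11 (adjusted p = 0.00010). The endosomal proteases went the other way: Ctsl was 1.46 ± 0.20 (adjusted p = 2.0e-05), Ctsd 1.25 ± 0.09 (adjusted p = 6.2e-08) and Ctss, which trims the invariant chain, 0.43 ± 0.09 (adjusted p = 0.00095). In spleen cell against naive mice, Cd83 (1.16) and Irf4 (1.29) were the 2 higher and 6 were lower on the deposited scale, beside 11.9% and 58.4% of all genes, against 6 higher and 0 lower on total counts, where 45.5% of all genes were higher.

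Of 28 class I genes listed, 13 were in the table; B2m was not. With EPO 9 were lower and 1, the chaperone gene Calr at 0.58 ± 0.10 (adjusted p = 0.00016), was higher, beside 28.3% and 22.8% of all genes, with a median of -0.31 beside -0.999 for the class II genes and -0.07 for all genes. On total counts 2 were lower, beside 19.9%. The falls were largest in the peptide transporter gene Tap2 (-0.59), in H2-Q1 (-0.57), in Tap1 (-0.50) and in the classical chain gene H2-K1 (-0.43). H2-K1 had log2 levels of 13.69 ± 0.13, 13.75 ± 0.04, 13.78 ± 0.01 and 13.36 ± 0.14 in the 4 groups. In spleen cell against naive mice H2-Q10 changed most, by -4.68 ± 0.19 (adjusted p = 8.1e-11), more than any class II gene, and was called lower on every scale. There 1 class I gene was higher (H2-M3, 0.33) and 6, H2-Q10 included, were lower on the deposited scale, beside 11.9% and 58.4% of all genes, while 10 were higher and 1 lower on total counts, where 45.5% of all genes were higher. The difference between class I and class II changes was not tested.

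Genes outside the 9 with the profile most like the mean of H2-Aa, H2-Ab1, H2-Eb1 and Cd74 were sought over the 12 mice given cells, by the root mean square difference of log2 levels after subtracting each gene's mean. The nearest were Cxcr5 (0.08), Havcr2 (0.10), Btla (0.10), Myc (0.11) and Traf1 (0.13), beside a median of 0.62 over all other genes. The nearest to H2-Ea-ps over all 16 mice were Il12a (0.59), Il12b (0.64), Sesn1 (0.64), Il21r (0.66) and Lta (0.68), beside a median of 1.13. These distances are larger than those around the class II mean, and at so few counts the nearest profiles of H2-Ea-ps carry its counting error.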

How the data were processed

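Values were log2 normalized counts as the authors deposited them, from a NanoString nCounter myeloid panel; the normalization genes were not given in the sources used here. Each mouse's values were whole counts times 1 factor: 100% of 11744 values were whole within 0.001. Factors were 1.27 to 1.85 in naive and 0.56 to 0.79 in other mice, and what set them stays unknown. Column medians were 7.33, 7.32, 7.25 and 7.15 (naive), 6.58, 6.51, 6.53 and 6.50 (spleen cells), 6.55, 6.67, 6.45 and 6.51 (CTLA4-Ig) and 6.70, 6.84, 6.71 and 6.74 (CTLA4-Ig/EPO).

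Groups came from sample names and treatment labels, each mouse a separate sample. limma 3.58.1 (R 4.3.3; lmFit, eBayes) fitted all 734 genes and 16 mice with Benjamini-Hochberg adjustment and a threshold of 0.05, and was tested on simulated data; Python 3.11.15 and scipy 1.17.1 did the rest. Same-numbered CTLA4-Ig and CTLA4-Ig/EPO mice deviated together over genes (r = 0.1563, 0.1835, 0.1737 and 0.1434). These values do not establish pairs, since CTLA4-Ig/EPO mouse 2 correlated with CTLA4-Ig mouse 1 at 0.1916. The labels give no pairing either, and the main fit used none. In an alternative fit with the number as a block, no member's call changed in the EPO step.

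Members and lists were chosen with earlier results of these data known. Genes named were all members, counted lists with up to 4 called genes per direction, defining markers, and the 5 nearest profiles. Alternatives were other scalings, limma-voom, fits of 2 groups, a trended robust fit, filters, a floor, blocks and leaving out each mouse.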

Additional observations from a re-analysis of the deposited data

Results flagged for a closer look

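Among 44 sets of 4 mice examined (9 genes, their share of counts and the classical minus loading value, in 4 groups), 2 held a mouse far from the other 3, and chance alone marks about 1 set in 20. H2-DMa in the spleen cell group had log2 levels of 10.62, 10.75, 10.76 and 10.78, where the gap from mouse 1 to the next was 0.864 of the range. The classical minus loading value in naive mice was 3.35, 3.49, 3.48 and 3.48, where the gap below the others was 0.927 of the range. It lay at naive mouse 1, a different animal from the spleen cell mouse above. Naive mouse 1 had the highest factor, on which this value does not depend.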

How the results depend on the processing

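With EPO added to CTLA4-Ig, the 8 falling genes kept their direction and call in each of 18 alternatives, except Cd74 under quantile normalization, and 8 members were called without any 1 mouse. In spleen cell against naive mice 7 members kept theirs in all 18, H2-DMb1 gained a call in 11, and H2-Ea-ps lost its call in 7. With counts floored at 20, H2-Ea-ps turned to -1.15 there, 1 member was called lower, and against naive mice CTLA4-Ig/EPO gave -1.19, by construction of the floor. H2-Ea-ps lay below the filter that dropped the lowest 25% of genes, so that alternative gave it no value.

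The CTLA4-Ig/EPO difference from naive mice turned sign under centring on medians, total counts, quantile normalization and limma-voom, in this order. H2-Aa gave 0.47, 1.15, 0.92 and 1.15. H2-Ab1 gave 0.20, 0.87, 0.50 and 0.87. H2-Eb1 gave 0.45, 1.12, 0.80 and 1.12. Cd74 gave 0.27, 0.94, 1.30 and 0.94. H2-DMa gave 0.51, 1.18, 0.80 and 1.19. H2-DMb1 gave 0.14, 0.82, 0.49 and 0.82. Members called higher there numbered 4, 9, 9 and 9 against 1, and lower 0, 0, 0 and 0 against 2. The fit of 2 groups called 0 higher and 1 lower, and the trended robust fit 2 higher. Without 1 mouse the members called ran from 0 to 3 higher and 1 to 3 lower, with 0 higher without CTLA4-Ig/EPO mouse 1 or 2 or naive mouse 1 or 4 and 3 higher without naive mouse 3. Leaving out mice gave -0.13 to 0.031 for H2-Aa, -0.15 to 0.011 for H2-Eb1 and -0.087 to 0.055 for H2-DMa.

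All genes called in spleen cell against naive mice, under the same 4 scales, numbered 242, 334, 251 and 339 higher against 87, and 196, 132, 192 and 137 lower against 429. In CTLA4-Ig/EPO against naive mice they numbered 168, 340, 223 and 346 higher against 67, and 249, 90, 191 and 95 lower against 453. The factors differ between naive and other mice. For CTLA4-Ig against spleen cells, unadjusted p under 0.05 gave 36 higher and 34 lower against 0, and leaving out mice 0 to 1 in each direction. H2-Eb1 turned to -0.057 under quantile normalization, and ran from -0.023 to 0.19 without 1 mouse. The classical minus loading change without H2-Ob was 0.075 (spleen cell against naive) and -0.27 (EPO).

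With the replicate number as a block, all genes called were 92 higher and 439 lower (spleen cell against naive), 0 and 0 (CTLA4-Ig), 182 and 218 (EPO) and 74 and 457 (CTLA4-Ig/EPO against naive). H2-DMb1 gained a call under it in spleen cell against naive mice (adjusted p = 0.012), and the block changed no other call of a member. In no step did every mouse correlate best with its own number; in the EPO step mouse 2 of 1 group correlated with mouse 1 of the other at 0.1916, against 0.1835 with its own number. Only in the EPO step did all same-numbered mice correlate above 0.1, which does not establish that they were paired. A block of mice 1 and 2 against 3 and 4 was chosen after seeing the data. Where not stated, the cause of a change was not tested. Counts limit H2-Ea-ps alone among the 9.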
